A study of Solanum lycopersicum with 24 samples.

Results

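Described here are 150 tomato genes whose transcripts were selected on being high in SlWRKY71-overexpressing hairy roots and low in SlWRKY71 knockout hairy roots. They were the top 150 of 16301 ranked loci, out of 34688 loci listed for the whole series. CPM values, counts scaled to a common library size, were taken from each library's total, and loci with a mean of at least 2 CPM over SlWRKY71 overexpression libraries 4 and 5 were ranked. The ranking score was the log2 of the lower of these 2 libraries over the higher of the 2 SlWRKY71 knockout line means, with 0.5 CPM added to each. SlWRKY71 itself (Solyc02g071130) and a block of 452 loci on chromosome 12, Solyc12g056740 to Solyc12g096760, were left out. The members were therefore chosen by the values of 8 libraries, and those values are given as a description, without a test.

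All 24 libraries came from hairy roots of the cultivar M82, that is, roots that form on plant tissue after infection with Rhizobium rhizogenes and are kept as cultures. They form 8 groups of 3 libraries. The control carried an empty vector, and 3 overexpression groups carried SlMYB41, SlMYB92 or SlWRKY71 fused to 3xFLAG behind the constitutive 35S promoter. CRISPR/Cas9 knockouts were made of SlMYB41 and SlMYB92, with 1 group each, and of SlWRKY71, with a group each for lines 4 and 5. All groups were grown in darkness for 9 days, at 25 °C and on MS medium with 3% sucrose and cefotaxime. Each sample pooled 10 root tips, cut at 1 cm, so that cell types of the tip were mixed and fewer cells of a type could not be told apart from less RNA per cell. Every genotype except the SlWRKY71 knockout was a single line as far as the labels say, so that genotype and root line cannot be told apart, and p-values measure the spread between these samples. The 35S promoter drives the transgenes outside the cells that normally use them, and the growth protocol speaks of 4 biological replicates per line where 3 libraries were analysed. Libraries are named by the number in their column (2 to 5), which is not the replicate number of the labels.

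WRKY proteins are a large plant family of transcription factors that bind a short promoter element, the W-box, and either raise or lower the transcription of their targets. Many act in responses to pathogens, to wounding and to water or nutrient shortage. MYB41 and MYB92 in Arabidopsis are R2R3-MYB factors known for promoting the genes of suberin, a lipid and phenolic polymer laid down in root barrier cells. In tomato roots the suberised outer barrier is the exodermis, the cell layer below the epidermis. The table gives locus identifiers only, and none of the 34688 could be paired with a gene name, so that no product or role is stated for any of the 150 genes.

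Library totals ran from 4852464 to 15372241 estimated counts. Levels are given as CPM scaled by the trimmed mean of M-values (TMM); the score, the ratios with 0.5 CPM added and the sharing of levels use CPM from column totals. SlWRKY71 stood at 41.4 and 26.2 CPM in SlWRKY71 overexpression libraries 4 and 5, and at 5.20 CPM in library 2 of the same group. The 3 control libraries had 1.99, 1.59 and 1.13 CPM, knockout line 4 had 3.15, 1.05 and 2.08 CPM, and knockout line 5 had 1.45, 4.29 and 0.455 CPM. The library labelled SlWRKY71 overexpression 2 thus lay above every control library but below SlMYB92 knockout library 3, at 5.54 CPM, so that only libraries 4 and 5 carried a clear excess of the transcript. Reads from the transgene count towards the locus, and reads of a knockout allele can still do so, so that these values do not show the state of the endogenous gene. SlMYB41 was at 7.18 to 13.6 CPM in its own overexpression libraries and at most 1.45 CPM elsewhere, and SlMYB92 at 48.2 to 87.5 CPM in its own and at most 0.422 CPM elsewhere.

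Within the 150 genes the selecting values were steep but not alike. The score, on the log2 scale, ran from 2.75 to 7.77 with a median of 3.06. At the edge of the list, Solyc04g078420 and Solyc03g121500, the last 2 ranks, both scored 2.75, while the first genes outside it, Solyc05g007000 and Solyc03g123840, both scored 2.74, so that no gap separates members from non-members. Levels of the members ran from 3.74 to 967 CPM in library 4 (median 14.2) and from 3.11 to 1040 CPM in library 5 (median 13.2). The members' medians thus lay close to that of all ranked loci, which had 17.3 and 16.8 CPM in the same libraries.

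SlWRKY71 overexpression library 2, which the ranking did not use, did not share the high levels. Its median over the 150 genes was 1.37 CPM, the 14th of 24 in descending order, and 6 members had no count in it, against none in libraries 4 and 5. The control libraries had medians of 3.04, 2.22 and 2.91 CPM. Library 2 lay below every control library for 118 members, where 27.4% of ranked loci did, and above every control library for 11, where 31.8% did. Libraries 4 and 5 both exceeded library 2 for 148 members (39.6% of ranked loci), which reads the selecting values and is a description. The name "genes highest with SlWRKY71 overexpressed" thus describes libraries 4 and 5, which chose the genes, and for most members not library 2. Even libraries 4 and 5 were both above each of the other 22 libraries for 128 of the 150 members only (11.9% of ranked loci).

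Among the libraries that the ranking did not use, SlMYB92 knockout libraries 5 and 3 had the highest medians, and library 5 stood apart. SlMYB92 knockout libraries 2, 3 and 5 had medians of 2.45, 3.55 and 7.78 CPM. SlMYB41 overexpression libraries 2, 3 and 5 had 3.24, 2.13 and 1.27 CPM, and SlMYB92 overexpression libraries 2, 3 and 4 had 1.22, 3.31 and 1.31 CPM. The SlMYB41 knockout libraries were low throughout, at 1.50, 1.21 and 1.89 CPM, and did not overlap with the control. The selecting knockout lines had 1.10, 1.11 and 0.910 CPM in line 4 and 0.645, 1.02 and 1.32 CPM in line 5. The median ranked locus was at 16.1 to 17.3 CPM in all 24 libraries, as TMM scaling aligns the bulk of loci.

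**Figure D1:**
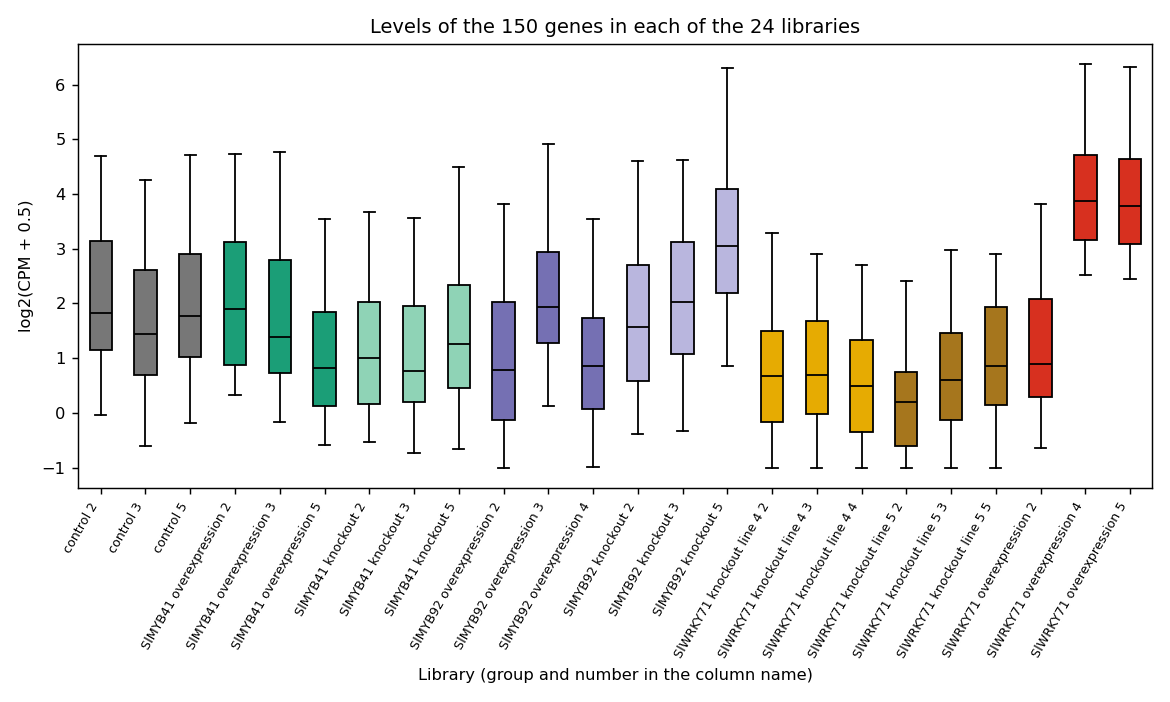
Levels of the 150 genes, as log2(CPM + 0.5), in each of the 24 libraries, with groups in colour. Boxes span the quartiles around the median line and whiskers reach the 5th and 95th percentiles. SlWRKY71 overexpression libraries 4 and 5 were used to choose the genes, with medians of 14.2 and 13.2 CPM, and library 2 of the same group has a median of 1.37 CPM, below all 3 control libraries.

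The libraries with the highest levels of the members were also those with the most loci detected. At 1 CPM or more, 17812 and 17866 loci were detected in SlWRKY71 overexpression libraries 4 and 5, the highest of the 24, and 17390 in SlMYB92 knockout library 5, the third highest. Library 2 of the SlWRKY71 overexpression group had 16368, the control libraries 16651 to 17107, and knockout line 5 library 2, with the lowest median of the members, had the lowest number, 15897. The TMM factors of libraries 4 and 5, 1.10 and 1.12, were also the highest of the 24, while that of library 2 was 0.941. The members took 0.595% and 0.557% of all counts in libraries 4 and 5, 0.342% in SlMYB92 knockout library 5 and 0.0286% to 0.170% in the other libraries. Elsewhere the order of the libraries was looser. SlWRKY71 knockout line 5 library 3 had 16951 loci at a member median of 1.02 CPM, more than control libraries 3 and 5 (16651 and 16902), and SlMYB92 knockout library 2 had 16404 at 2.45 CPM. The part of detection breadth in the result was not tested, and no list of root cell type markers could be matched to the identifiers.

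**Figure D2:**
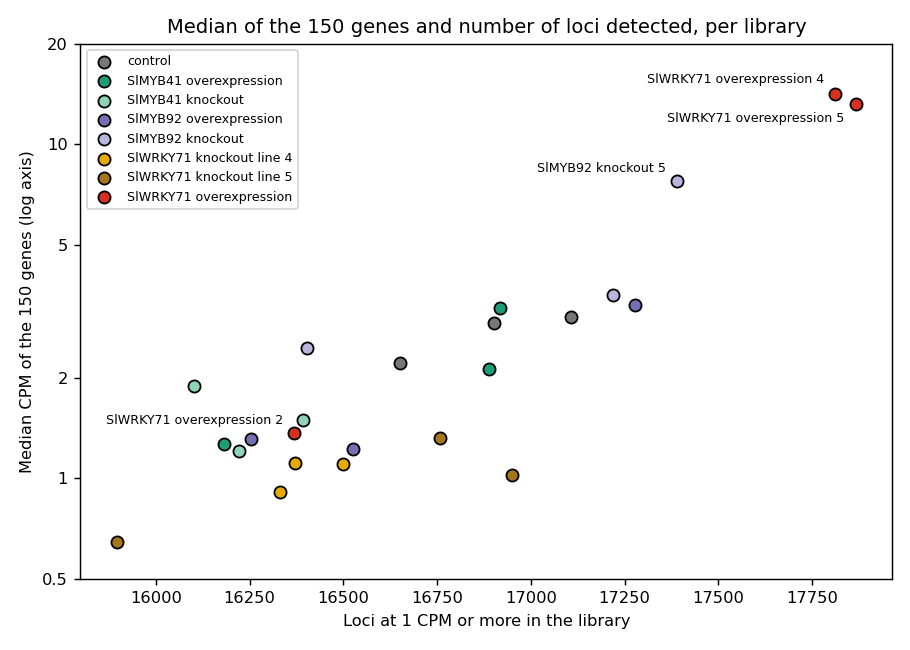
Median CPM of the 150 genes (log axis) against the number of loci at 1 CPM or more, with 1 point for each of the 24 libraries. The 2 libraries that chose the genes lie at the upper right with 17812 and 17866 loci, followed by SlMYB92 knockout library 5 with 17390. Library 2 of SlWRKY71 overexpression lies among the lower libraries with 16368.

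The genes at the top of the ranking show both patterns in single values. Solyc12g098740 (rank 3) was at 64.0 and 53.1 CPM in libraries 4 and 5 and 3.90 CPM in library 2. Its control libraries had 6.90, 9.35 and 9.85 CPM, SlMYB92 knockout libraries 8.36, 9.62 and 25.9 CPM, and SlMYB41 knockout libraries 3.56, 4.09 and 6.07 CPM. Libraries 4 and 5 stood clear of all others, SlMYB92 knockout library 5 came next, and library 2 was below the control. Solyc06g007980 (rank 4) repeated this order, with 48.1 and 42.4 CPM in libraries 4 and 5, 2.02 CPM in library 2, 4.56 to 6.66 CPM in the control and 18.1 CPM in SlMYB92 knockout library 5. Its SlMYB92 knockout libraries 2 and 3, at 3.45 and 7.43 CPM, lay on either side of the control range.

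The most abundant members, at a much higher level, also had libraries 4 and 5 above the control and library 2 below it. Solyc03g116060 (rank 39), the most abundant, was at 967 and 1040 CPM in libraries 4 and 5 and 224 CPM in library 2. Its control libraries had 319, 317 and 388 CPM, above library 2, and its knockout libraries of SlWRKY71 52.3 to 127 CPM. Its SlMYB92 knockout libraries were spread widely, at 322, 142 and 534 CPM, across the control range. Solyc04g074730 stood at 429 and 458 CPM in libraries 4 and 5, at 68.8 CPM in library 2 and at 144, 139 and 141 CPM in the control. Solyc11g010390 stood at 338 and 239 CPM, at 42.3 CPM in library 2 and at 118, 107 and 95.2 CPM in the control. For both, library 2 was below every control library and SlMYB92 knockout library 5 (268 and 264 CPM) was the highest of the libraries outside the selecting ones.

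Some members had estimated counts that were not whole, which arise where reads match more than 1 transcript and are shared out by estimation. A count that was not whole, at a tolerance of 1e-09, occurred in at least 1 library for 40 members (26.7%), against 16.2% of ranked loci. Solyc00g500191, the gene at rank 1, was one of them, with counts that were not whole in 21 libraries. It was at 300 and 126 CPM in libraries 4 and 5 and 22.2 CPM in library 2, at 75.2 to 82.0 CPM in the control, and in the SlWRKY71 knockout lines at most 0.482 CPM. In SlMYB41 overexpression it was at 38.1 and 41.2 CPM in libraries 2 and 3 and below 0.01 CPM in library 5, so that libraries of 1 group were far apart. Its level is uncertain, since it rests in part on reads divided by estimation. Solyc01g096470 (rank 2), with such counts in 15 libraries, had no count in any of the 6 SlWRKY71 knockout libraries and 8.56 and 7.98 CPM in libraries 4 and 5. The control, at 6.53, 8.29 and 19.4 CPM, reached above both, so its rank came from the knockout lines and not from a level above the control.

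Against the control, which the ranking did not use, libraries 4 and 5 were both above every control library for 146 of the 150 members (27.9% of ranked loci). With 0.5 CPM added to both sides, on CPM from column totals, the ratio of the lower of the 2 libraries to the control mean ran from 0.754 to 51.5. Its median was 4.03 over the members and 0.957 over all ranked loci. The same ratio to library 2 of their own group ran from 0.700 to 20.1, with a median of 7.79, where ranked loci had 1.03. The added 0.5 CPM understates the ratio where the control or library 2 is near 0. Both libraries exceeded each of the other 22 libraries for 128 members (11.9% of ranked loci). These comparisons contain the selecting libraries and are not tests.

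How far other genotypes came near the selecting level divided the members further. A group was taken to share a member's high level when its mean, plus 0.5 CPM, reached at least 0.5 of the lower of libraries 4 and 5 plus 0.5 CPM. This measure reads the selecting values, so that the gap between members and ranked loci is in part built in, and it is a description. By this measure 118 members were shared with none of the control and 4 SlMYB groups, as were 4.53% of ranked loci. The SlMYB92 knockout shared the level of 24 members (92.9% of ranked loci), the control of 9 (90.8%), SlMYB92 overexpression of 9 (84.6%), SlMYB41 overexpression of 7 (88.1%) and the SlMYB41 knockout of 7 (83.7%). Solyc11g062190 was shared with the SlMYB92 knockout alone, at 32.6, 24.1 and 108 CPM there and at 78.9 and 49.8 CPM in libraries 4 and 5. Its control had 17.3, 12.3 and 18.4 CPM and library 2 had 5.20 CPM, while library 5 of the SlMYB92 knockout was above both selecting libraries. Solyc02g085540 likewise was at 12.5, 16.8 and 91.4 CPM in the SlMYB92 knockout, where only library 5 lay clear of the control at 17.3, 9.99 and 18.1 CPM.

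**Figure D3:**
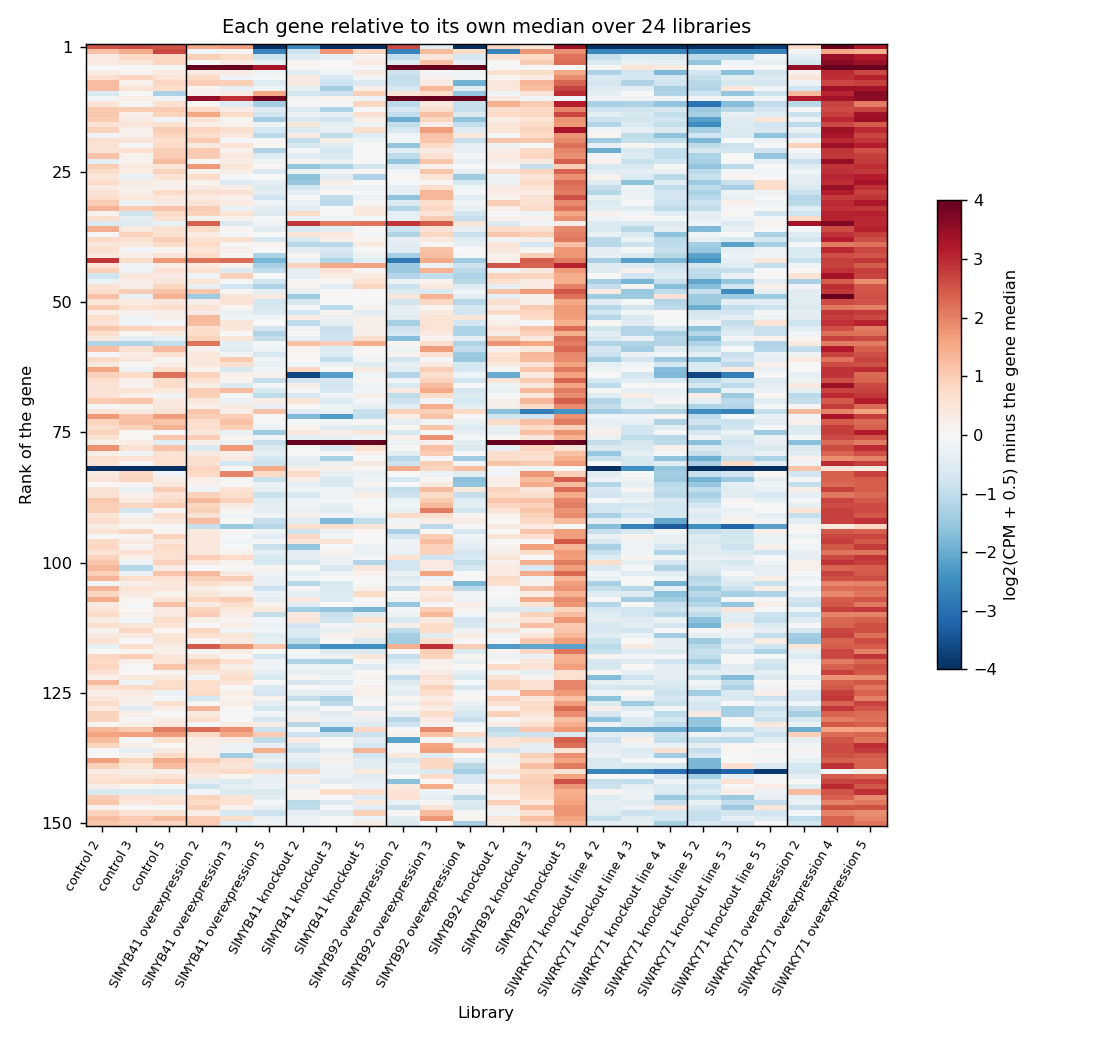
Each row is a gene in rank order and each column a library; colour gives log2(CPM + 0.5) minus the median of that gene over 24 libraries, limited to 4 in either direction. Red columns at the right are SlWRKY71 overexpression libraries 4 and 5, which chose the genes. SlMYB92 knockout library 5 is red for most rows, and a few single rows follow a different pattern across the SlMYB groups.

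The members also moved together in the 16 libraries that did not enter the ranking (control, the 4 SlMYB groups and SlWRKY71 overexpression library 2). Each gene's log2(CPM + 0.5) was correlated by rank with the median of the other members in each library. The median Spearman's rho was 0.75 over the members, with quartiles of 0.60 and 0.84, and -0.03 over the 16151 ranked loci outside the list. A rho over 0.5 was found for 125 members (83.3%) and for 15.0% of the loci outside. This describes 16 libraries that differ in depth and in detection breadth as given above, which all members share within a library. Without SlMYB92 knockout library 5, 116 members had one.

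Only 7 members had a rho below 0 in these 16 libraries. They were Solyc03g114960 (-0.56), Solyc07g019577 (-0.39), Solyc08g014430 (-0.33), Solyc03g058950 (-0.32), Solyc03g058910 (-0.21), Solyc07g042335 (-0.16) and Solyc06g017977 (-0.04). Solyc03g058910, called in no comparison, had 7.25, 6.18 and 5.91 CPM in the control, 2.86, 1.75 and 2.36 CPM in SlMYB41 overexpression and 9.75, 9.34 and 8.63 CPM in the SlMYB41 knockout. The other 6 were each called in at least 1 comparison, and their values are given with the tests.

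Of the 5 groups outside SlWRKY71, the SlMYB92 knockout had the highest mean for 120 members (80.0%), where it did so for 22% of ranked loci. Without its library 5 the count was 60, so that 1 library carried much of it. The control was highest for 16 (17.5% of ranked loci), SlMYB92 overexpression for 6 (21.0%), SlMYB41 overexpression for 5 (14.2%) and the SlMYB41 knockout for 3 (25.3%). The lowest mean was in the SlMYB41 knockout for 85 members (56.7%), against 20.0% of ranked loci, and this count was 77 to 103 when any of its libraries was left out. SlMYB92 overexpression was lowest for 40 (26.7%) and SlMYB41 overexpression for 17 (11.3%), near their shares of ranked loci, 23.3% and 12.9%. The control was lowest for 6 (4.0%, against 22.9%) and the SlMYB92 knockout for 2 (1.33%, against 20.9%).

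Tests were made in 8 comparisons of libraries that the ranking did not use, with edgeR's quasi-likelihood test over 18297 loci and a Benjamini-Hochberg adjusted p under 0.05 as the threshold. All but 1 of the 150 members passed the filter on low counts. The exception, Solyc04g080090, had 86 counts in all libraries together. Comparisons with the control share its 3 libraries, and their results are therefore not independent.

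In SlWRKY71 overexpression library 2, 3 members were higher than in the control (0.180% of all loci tested) and 0 lower (0.0656%). By log2 fold change 134 members were below 0 and 15 above, with a median of -1.07 where all loci had 0.00. At an unadjusted p under 0.05, 19 members were lower (4.07% of all loci), and DESeq2 called 0 lower. In simulated data for this comparison, 3 of 100 2-fold and 57 of 100 4-fold changes were found. The lack of lower calls therefore does not show that 2-fold changes were absent. The lone library has no replicate of its own and was assumed to vary like the others. Its test against the 4 SlMYB groups used the mean of their log levels, whereas a fold bound given for that comparison pools the counts of their libraries. Against the mean of the 4 SlMYB groups, 1 member was higher (0.230% of all loci) and 1 lower (0.0437%), with a median of -0.68 over the members and 0.00 over all loci.

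Between SlMYB overexpression and the control, few members were called at the adjusted threshold. Most had a log2 fold change below 0, 122 in SlMYB41 overexpression and 125 in SlMYB92 overexpression. Of all loci, 50.7% and 51.0% had one above 0. In SlMYB41 overexpression 3 were higher (0.716% of all loci) and 0 lower (0.443%), with a median log2 fold change of -0.48 where all loci had 0.00. At an unadjusted p under 0.05, 5 were lower (4.59% of all loci), and DESeq2 called 1 lower. In SlMYB92 overexpression 5 were higher (2.40%) and 2 lower (1.81%), with a median of -0.60 over the members and 0.01 over all loci. The lower count rested on single libraries, being 8 without SlMYB92 overexpression library 3, 1 without its library 2, and 0 without its library 4 or control library 3 or 5. The higher count was 3 to 5 over the same omissions. At an unadjusted p under 0.05 in edgeR, 24 members were lower and 7 higher in SlMYB92 overexpression, where 3430 of 18297 loci passed in either direction.

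The medians of the members lay on opposite sides of 0 in the 2 SlMYB knockouts relative to the control. In the SlMYB41 knockout 5 members were higher (3.31% of all loci) and 8 lower (3.58%), while 133 had a log2 fold change below 0, with a median of -0.92 where all loci had 0.01. The lower count was 4 without SlMYB41 knockout library 3, 5 without its library 2 or control library 5, and 10 without its library 5, and the higher count was 3 without control library 5. All 3 SlMYB41 knockout libraries were below every control library for 77 of the 150 members (13.8% of ranked loci). At an unadjusted p under 0.05 in edgeR, 41 members were lower and 6 higher in this knockout, where 4139 of 18297 loci passed in either direction. In the SlMYB92 knockout 24 members were higher and 3 lower at an unadjusted p under 0.05, where 2382 of 18297 loci passed in either direction. At the adjusted threshold 5 members were higher (1.29%) and 3 lower (2.13%). A log2 fold change above 0 was found for 128, with a median over the members of 0.66 where all loci had 0.03. All 3 of its libraries were above every control library for 21 members (7.63% of ranked loci). With members of 3 or fewer counts in a group set to their count ratio or bound, this median was 0.62, that between the SlMYB knockouts, given next, was 1.56, and the medians of the other 6 comparisons were the same to 2 decimals. By library, the members' median CPM in SlMYB92 knockout library 2 (2.45) lay within the control range of 2.22 to 3.04. That of library 3 (3.55) lay a little above the range and that of library 5 (7.78) far above. How much of the SlMYB92 knockout's positive median rested on library 5 was not tested.

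Set against each other, the SlMYB knockouts differed at the adjusted threshold in 3 members, while the fold changes of most members had the same sign. The SlMYB92 knockout over the SlMYB41 knockout gave a log2 fold change above 0 for 142 members and below 0 for 6, with a median of 1.58 over the members and -0.03 over all loci. At an adjusted p under 0.05, 2 members were higher (0.306% of all loci) and 1 lower (0.268%). At an unadjusted p under 0.05, 103 members were higher (8.80% of all loci). All 3 SlMYB92 knockout libraries were above all 3 SlMYB41 knockout libraries for 78 of the 150 (9.39% of ranked loci). These shares of all loci tested belong to the main edgeR fit, and none is given beside the counts of other fits that follow. DESeq2 called 35 members higher. In edgeR, 15 were called higher without SlMYB92 knockout library 2, 4 without its library 3 and 0 without its library 5, and 0, 0 and 1 without SlMYB41 knockout libraries 2, 3 and 5, so that the number of calls depended on the method and on single libraries. The lower call was made in 1 of these 6 omissions, that of SlMYB92 knockout library 2. Between SlMYB92 and SlMYB41 overexpression, 0 members were higher (0.486% of all loci) and 1 lower (0.153%), with a median of -0.18. At an unadjusted p under 0.05, 4 were higher (5.49% of all loci), and DESeq2 called 0 higher.

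**Figure D4:**
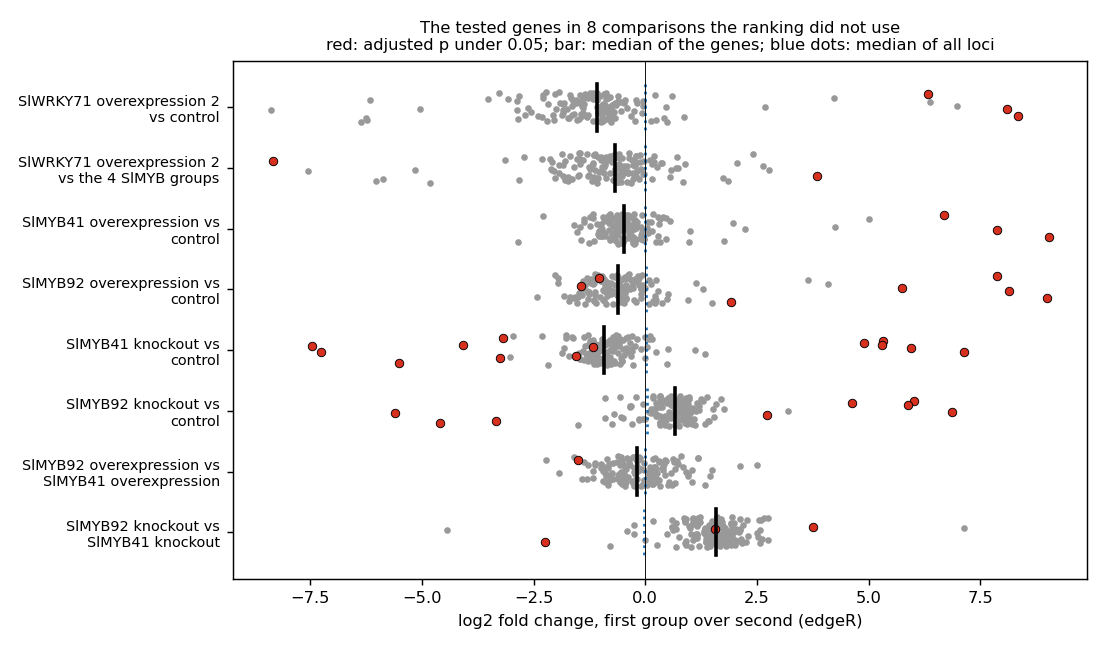
Log2 fold changes of the tested genes in the 8 comparisons, 1 point per gene, with those at an adjusted p under 0.05 in red. Black bars are the medians of the genes and blue dots the medians of all 18297 loci. The medians were -0.92 in the SlMYB41 knockout and 0.66 in the SlMYB92 knockout against the control, and 1.58 between these knockouts; points far from 0 in several comparisons are genes with few counts in a group.

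Solyc03g114960 (rank 82, chromosome 3 by its identifier) was the member that differed from the control in the most comparisons. Its control libraries had 0.117, 0.634 and 0 CPM, the SlMYB41 overexpression libraries 48.7, 28.1 and 75.1 CPM, and the SlMYB92 overexpression libraries 74.7, 48.2 and 62.1 CPM. The SlMYB41 knockout libraries had 32.1, 32.4 and 26.2 CPM, the SlMYB92 knockout libraries 24.9, 24 and 26.6 CPM, and SlWRKY71 overexpression library 2 had 58.9 CPM. Every one of these libraries was far above all 3 control libraries, and the SlWRKY71 knockout lines were low, at 0.472, 4.41 and 8.97 CPM in line 4 and 0 to 0.204 CPM in line 5. The log2 fold change over the control was 8.09 (SE 0.81, edgeR quasi-likelihood adjusted p = 6.5e-06) in library 2. It was 7.88 (SE 0.74, edgeR adjusted p = 1.3e-06) in SlMYB41 overexpression and 8.15 (SE 0.74, edgeR adjusted p = 5.9e-07) in SlMYB92 overexpression. In the knockouts it was 7.13 (SE 0.75, edgeR adjusted p = 2e-06) for SlMYB41 and 6.86 (SE 0.75, edgeR adjusted p = 3.3e-06) for SlMYB92. These calls held under every alternative tried. The same 3 low control libraries stand in each of these comparisons.

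Solyc07g042335 and Solyc07g019577 were high in all 3 overexpression genotypes and at or near 0 in the others. Solyc07g042335 had 12.2, 8.63 and 4.43 CPM in SlMYB41 overexpression, 7.71, 9.43 and 7.40 CPM in SlMYB92 overexpression, and 5.25, 8.34 and 12.8 CPM in SlWRKY71 overexpression. The control and both SlMYB knockouts had no count, and the highest SlWRKY71 knockout library had 0.192 CPM. Taking 3 counts over the control group as the floor, it was at least 44.7-fold higher in library 2 (edgeR adjusted p = 0.002), at least 61.6-fold in SlMYB41 overexpression (edgeR adjusted p = 9e-05) and at least 69.6-fold in SlMYB92 overexpression (edgeR adjusted p = 5.2e-05). Solyc07g042335 was also called higher in library 2 than in the mean of the 4 SlMYB groups (edgeR adjusted p = 0.015), although the libraries overlapped, because that mean contains both knockouts without a count. Under the replicate block that adjusted p was 0.13.

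Solyc07g019577 had 5.79, 3.78 and 7.58 CPM in SlMYB41 overexpression, 9.81, 19.9 and 9.48 CPM in SlMYB92 overexpression, and 4.50, 5.15 and 6.01 CPM in SlWRKY71 overexpression. All libraries of the other genotypes were at 0 to 0.199 CPM, the control with 1 count in all. The ratio to the control was 115 in library 2 (95% counting interval 19.0 to 4660, edgeR adjusted p = 0.0037), 160 in SlMYB41 overexpression (28.3 to 6390, edgeR adjusted p = 0.00016) and 335 in SlMYB92 overexpression (59.6 to 13300, edgeR adjusted p = 1.1e-05). The intervals cover counting error alone and are wide because of the single control count. Both loci had counts that were not whole, in 9 libraries for Solyc07g042335 and 8 for Solyc07g019577.

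Solyc11g010890 and Solyc03g079970 were called higher in both SlMYB knockouts than in the control. Solyc11g010890 had 36.4, 27.1 and 38.8 CPM in the SlMYB41 knockout. The SlMYB92 knockout had 39.0, 21.6 and 24.4 CPM, and the control 0.657 to 1.43 CPM. Its selecting libraries had 7.05 and 6.02 CPM, so both knockouts were above them, and library 2 had no count. The log2 fold change over the control was 4.9 (SE 0.43, edgeR adjusted p = 1.4e-07) in the SlMYB41 knockout and 4.64 (SE 0.43, edgeR adjusted p = 2.7e-07) in the SlMYB92 knockout. In library 2 it was at least 41.8-fold below the pooled level of the 4 SlMYB groups. The test, on the mean of their log levels, called it lower in edgeR and not in DESeq2. Both the bound and the test rested on the knockouts, as both overexpression groups were at 0.338 to 1.33 CPM. Solyc03g079970 had 2.06, 1.78 and 2.70 CPM in the SlMYB41 knockout. The SlMYB92 knockout had 3.45, 2.91 and 4.17 CPM, with 1 count in the control, and of the other SlMYB libraries SlMYB41 overexpression library 2 was highest, at 4.57 CPM. Its ratios to the control were 55.0 (95% counting interval 9.41 to 2220, edgeR adjusted p = 0.0098) and 90.1 (15.8 to 3590, edgeR adjusted p = 0.0037). The level was not particular to the knockouts. Without a call, the ratio was 37.8 in SlMYB41 overexpression (6.33 to 1540, edgeR adjusted p = 0.054), whose libraries did not overlap with the control. In SlMYB92 overexpression it was 16.7 (2.51 to 712, edgeR adjusted p = 0.15), with overlap.

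Solyc08g014430 was called higher in the SlMYB41 knockout and in SlMYB92 overexpression. It had 4.88, 2.62 and 2.70 CPM in the former and 4.87, 3.39 and 0.550 CPM in the latter, and the control had 1 count. The ratios were 81.3 (95% counting interval 14.1 to 3260, edgeR adjusted p = 0.011) and 70.8 (12.2 to 2850, edgeR adjusted p = 0.022). Without control library 5, which held the 1 count, the adjusted p in the SlMYB41 knockout was 0.059, and the call in SlMYB92 overexpression was lost without control library 2, 3 or 5 and without its own library 2 or 3. Solyc08g014430 was also among the few members with a high library 2 of SlWRKY71 overexpression, at 6.94 CPM beside 9.03 and 5.30 CPM in libraries 4 and 5. Solyc03g058950 was another, at 10.4 CPM in library 2, above its control at 5.73, 5.23 and 6 CPM and below libraries 4 and 5 at 17.2 and 13.2 CPM.

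Solyc07g005033 and Solyc06g017977 were called lower in both SlMYB knockouts, with at most 3 counts in either. Solyc07g005033 had 2.29, 2.38 and 2.49 CPM in the control, no count in the SlMYB41 knockout and 1 count in the SlMYB92 knockout. It was at least 17.8-fold lower in the former (edgeR adjusted p = 0.00021) and at a ratio of 0.0138 in the latter (95% counting interval 0.000344 to 0.0798, edgeR adjusted p = 0.00026). Solyc06g017977 had 1.75, 3.96 and 2.81 CPM in the control, 1 count in the SlMYB41 knockout and 3 in the SlMYB92 knockout. Its ratios were 0.0164 (0.000409 to 0.0942, edgeR adjusted p = 0.001) and 0.0361 (0.00726 to 0.110, edgeR adjusted p = 0.0012). In SlMYB92 overexpression Solyc06g017977 was higher, at 6.79, 20.3 and 4.95 CPM, with a log2 fold change of 1.92 (SE 0.51, edgeR adjusted p = 0.036), a call lost without control library 2, 3 or 5, without SlMYB92 overexpression library 3, or under the replicate block (adjusted p = 0.051).

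Solyc03g058950 fell in the SlMYB92 knockout, to 0.929, 0.146 and 0.358 CPM, with a log2 fold change of -3.33 (SE 0.50, edgeR adjusted p = 0.00018). The SlMYB41 knockout had 2.81, 3.25 and 1.89 CPM, below the control in every library, without a call. Solyc00g500191 fell in the SlMYB41 knockout, to 1.75 CPM in library 2 and below 0.01 CPM in libraries 3 and 5, by a log2 fold change of -7.47 (SE 1.77, edgeR adjusted p = 0.012). Its adjusted p was 0.058 to 0.064 without SlMYB41 knockout library 3 or 5, and its shared reads make the size uncertain.

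The other members called in the SlMYB knockouts, shown with their test alone, completed the counts. Solyc04g051513 had no count in any control library and was at least 5.25-fold higher in the SlMYB41 knockout (edgeR adjusted p = 0.022) and at least 7.19-fold higher in the SlMYB92 knockout (edgeR adjusted p = 0.0097). The first of these was lost without SlMYB41 knockout library 3 or 5 or any 1 control library, and the second without control library 5. Solyc11g011010 was at 10.1, 8.74 and 15.1 CPM in the SlMYB92 knockout and 1.11 to 2.22 CPM in the control, a log2 fold change of 2.73 (SE 0.46, edgeR adjusted p = 0.00076). In the SlMYB41 knockout Solyc11g062130 had 6.04, 4.11 and 11.0 CPM against 48.1 to 72.9 CPM in the control, a log2 fold change of -3.19 (SE 0.58, edgeR adjusted p = 0.0015). Its SlMYB92 knockout libraries were at 12.2, 12.1 and 78.2 CPM, so that library 5 alone reached the control. Solyc02g084031, Solyc06g065970 and Solyc04g074730 were also lower in the SlMYB41 knockout, and the calls of the latter pair were lost when single libraries were left out.

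Smaller changes were called at intermediate levels. Solyc12g010170 had 11.5, 14.9 and 13.5 CPM in the control and 4.53, 5.45 and 4.81 CPM in SlMYB92 overexpression, where it fell by a log2 fold change of -1.43 (SE 0.34, edgeR adjusted p = 0.018). In the SlMYB41 knockout it had 5.81, 5.56 and 6.20 CPM, with a log2 fold change of -1.18 (SE 0.33, edgeR adjusted p = 0.034), and in the SlMYB92 knockout 10.7, 14.6 and 26.8 CPM. Each group that fell lay wholly below the control, and the SlMYB92 knockout lay on both sides of it. Solyc12g010170 lost the SlMYB92 overexpression call without control library 3 or 5, without overexpression library 2 or 4, and under the replicate block (edgeR adjusted p = 0.063), and the SlMYB41 knockout call without control library 3 or 5 or any 1 knockout library. Solyc10g051140 had 19.2, 18.1 and 17.7 CPM in the control and 11.1, 10.2 and 5.63 CPM in SlMYB92 overexpression, a log2 fold change of -1.04 (SE 0.27, edgeR adjusted p = 0.029). That call was lost without any 1 control library, without SlMYB92 overexpression library 4, and under the replicate block (edgeR adjusted p = 0.067). Its selecting libraries, at 13.3 and 18.6 CPM, did not exceed the control, and its rank came from the SlWRKY71 knockout lines, at 0.607 to 2.05 CPM.

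**Figure D5:**
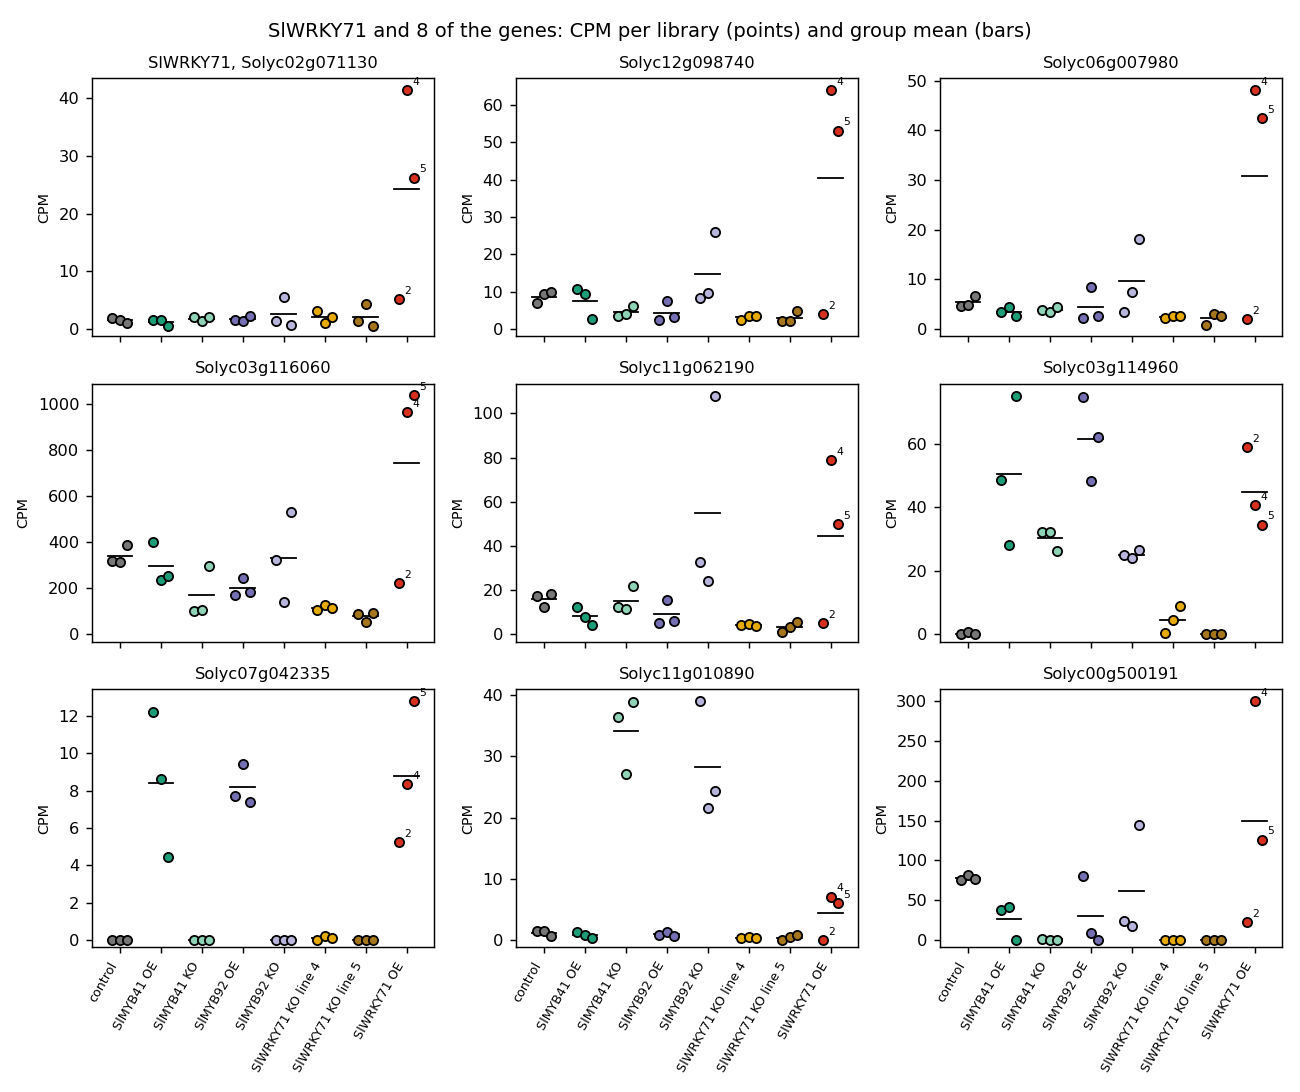
CPM of SlWRKY71 and 8 of the genes in each library (points) with group means (bars), n = 3 libraries a group; numbers mark the SlWRKY71 overexpression libraries. OE stands for overexpression and KO for knockout. Solyc12g098740 and Solyc06g007980 are high in libraries 4 and 5 only of that group (64.0 and 53.1, 48.1 and 42.4 CPM), Solyc03g114960 is near 0 in the control, and Solyc11g010890 is above 21 CPM in every library of both SlMYB knockouts.

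By their identifiers the members lay on all 12 chromosomes. Chromosomes 3 and 11 held 18 each (12.0% of members), where they hold 10.7% and 6.90% of ranked loci, and chromosome 1 held 11 (7.33%, against 13.2%). Unplaced loci made up 3 members (2.00%, against 0.423%). Within 3 places in the order of listed loci, 12 members formed 6 neighbour pairs, 3 of them on chromosome 11, and 138 had no such neighbour. No matching share was computed for ranked loci, so that this count is a description only.

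The neighbours of a pair could be close or far apart in level. Solyc02g031860 had 21.0 and 18.6 CPM in libraries 4 and 5 and Solyc02g031910 had 19.6 and 17.3 CPM, with 1.96 and 1.80 CPM in library 2. Both had counts that were not whole in all 24 libraries, so that their reads were divided by estimation and each level is uncertain. Solyc11g040370 and Solyc11g040390 differed in level, at 61.8 and 45.7 CPM against 11.1 and 8.62 CPM, yet both were highest in the selecting libraries, and their levels in library 2 were 3.32 and 0.433 CPM. Solyc05g052560 and Solyc05g052570 were at 5.61 and 5.4 CPM and at 8.48 and 11.5 CPM, with at most 2.27 and 4.17 CPM in any other library. For these 3 pairs the selecting libraries were the 2 highest of the 24 in both neighbours. Solyc11g010360 and Solyc11g010390 were far apart, at 6.93 and 338 CPM in library 4, and in the latter SlMYB92 knockout library 5 (264 CPM) exceeded library 5 of SlWRKY71 overexpression (239 CPM).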

How the data were processed

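The authors deposited estimated counts per locus for 24 libraries. The submitters' processing notes name Trim Galore 0.6.6 and kallisto 0.46.2; of the annotation used, the name is not given in the sources here. Per the labels' protocols, libraries were randomly primed from poly(A) RNA, unstranded, and read in pairs of 75 bp, so reads of a gene and of an antisense neighbour are pooled. Of the values, 6.18% were not whole, and counts were rounded for testing. The members and lists were chosen with earlier results of these data known.

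Loci without a count in any library numbered 6479. Libraries were fitted together in edgeR 4.0.16 (R 4.3.3, limma 3.58.1) with filterByExpr, TMM factors of 0.909 to 1.12 and a mean per group, with SlWRKY71 overexpression split into library 2 and libraries 4 and 5; 18297 loci were tested, at a common biological coefficient of variation of 26.2%. In simulated data for the SlMYB92 knockout against the control, 24 of 100 2-fold changes and 86 of 100 4-fold changes were found, with 2 false calls. For SlWRKY71 overexpression library 2 against the control, 3 of 100 2-fold changes and 57 of 100 4-fold changes were found, with 5 false calls. Log2 fold changes carry standard errors (SE), which were worked back from the test. Each is the absolute log2 fold change divided by the square root of the quasi-likelihood F statistic. P-values were adjusted by Benjamini-Hochberg over all loci tested, and intervals and floors (3 counts) cover counting error only. Library totals of 4852464 to 15372241 set the precision. Levels are CPM on TMM-scaled totals.

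Column numbers are not known to pair the libraries. Deviations of the 67 same-numbered pairs of libraries from different groups had a median correlation of -0.027, against 0.018 for 185 different-numbered pairs. Genes were picked for naming at ranks 1 to 4, at the edge of the list, and by the highest mean levels. Per comparison and direction, picks had the largest log2 fold changes among called members whose libraries did not overlap. Further picks were high in library 2, in neighbour pairs, or first of each sharing class. Not all picked pairs and class members are shown. Other called members, and Solyc07g019577 and Solyc06g017977 in further comparisons, were chosen after their values were seen. No 2 libraries were identical. Alternatives were DESeq2 1.42.0, its size factors, no filter, a replicate block, each library left out, and other rankings. No sequences were used.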

Additional observations from a re-analysis of the deposited data

Results flagged for a closer look

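A difference between genotypes under the same contrast with the control was found for 4 members, each by the direct edgeR test between the groups. In the SlMYB92 against the SlMYB41 knockout, Solyc12g010170 differed by a log2 fold change of 1.56 (SE 0.33, adjusted p = 0.032), with 10.7, 14.6 and 26.8 CPM against 5.81, 5.56 and 6.20 CPM and no overlap. Solyc03g058950 differed by -2.25 (SE 0.52, adjusted p = 0.048), with 0.929, 0.146 and 0.358 CPM against 2.81, 3.25 and 1.89 CPM. Solyc02g084031 had a fitted difference of 3.75 (SE 0.79, adjusted p = 0.032), which depends on 2 counts in the SlMYB41 knockout; the ratio was 14.7 (95% counting interval 3.81 to 125). Between SlMYB92 and SlMYB41 overexpression, Solyc10g051140 differed by -1.50 (SE 0.27, adjusted p = 0.0063), with 11.1, 10.2 and 5.63 CPM against 24.4, 26.8 and 25.0 CPM. The call for Solyc10g051140 was lost without SlMYB92 overexpression library 4 (adjusted p = 0.055). Those for Solyc12g010170 and Solyc02g084031 were lost without any 1 SlMYB41 knockout library or without SlMYB92 knockout library 5, and that for Solyc02g084031 also under the replicate block (adjusted p = 0.052). That for Solyc03g058950 was lost under 8 of 11 alternatives.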

How the results depend on the processing

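Of the 40 calls of members over the 8 comparisons, 23 held under every alternative run for them and 17 were lost under at least 1, and no direction reversed. The cause of these losses was not tested. The counts that follow are of members alone, without the share of all loci called under the same setting. DESeq2 called 5 higher in SlWRKY71 overexpression library 2 against the control (edgeR 3), 2 higher and 0 lower against the SlMYB groups (1 and 1), 1 lower in SlMYB41 overexpression (0), 4 lower in SlMYB92 overexpression (2), 13 lower in the SlMYB41 knockout (8), and 35 higher and 2 lower between the SlMYB knockouts (2 and 1). Between those knockouts, no filter gave 21 higher and 2 lower, and 0 were lower with DESeq2's size factors or with libraries 4 and 5 not in the fit. Ranking with a pseudocount of 2, which shared 102 of the members, gave 0 lower against the SlMYB groups, 5 lower in SlMYB92 overexpression, 1 higher and 13 lower in the SlMYB41 knockout, 3 higher in the SlMYB92 knockout and 1 higher between overexpression groups. The first 75 members held 0 lower against the SlMYB groups, 3 higher and 1 lower in SlMYB92 overexpression, 2 higher and 5 lower in the SlMYB41 knockout, 2 higher and 1 lower in the SlMYB92 knockout, 0 lower between overexpression groups and 1 higher between knockouts. Ranking on TMM-scaled CPM kept 144 members and all counts within 1.5 times. Leaving out each library in turn gave 3 to 5 higher and 0 to 8 lower in SlMYB92 overexpression, 3 to 5 higher and 4 to 10 lower in the SlMYB41 knockout, 0 to 1 lower between overexpression groups, 0 to 15 higher and 0 to 1 lower between knockouts, and 60 to 127 members highest in the SlMYB92 knockout.

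With a replicate block by column number, 0 were higher against the SlMYB groups, 0 lower in SlMYB92 overexpression, and 1 higher and 0 lower between knockouts, and no other count moved by over 1.5 times. The numbers are not known to pair the libraries. Of same-numbered pairs 25 of 67 had a correlation over 0.1, with a median of -0.027. Of different-numbered pairs 50 of 185 did, with a median of 0.018. Scaling by column totals moved the median of all loci from 0.0294 to -0.135 in SlWRKY71 overexpression library 2 against the control and from 0.00098 to -0.13 in the SlMYB41 knockout. Depth limits the members that rest on 3 or fewer counts in a group, 29 in the comparison of library 2 with the control.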
